A study of Mus musculus with 6 samples.

Results

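The let-7 microRNAs (miRNAs) carried by extracellular vesicles (EVs) are described here in mouse EVs from colon explants and from bone marrow–derived dendritic cells (BMDCs). The members were the 10 listed let-7 names found among the 1966 mature miRNAs of the count table, which are mmu-let-7a-5p, mmu-let-7b-5p, mmu-let-7c-5p, mmu-let-7d-5p, mmu-let-7e-5p, mmu-let-7f-5p, mmu-let-7g-5p, mmu-let-7i-5p, mmu-let-7j and mmu-let-7k, written below without the mouse prefix. Each source gave 3 small RNA libraries. Colon EVs came from explants kept for 16 hours in complete RPMI with exosome-depleted serum. They were pelleted by differential centrifugation and were then parted on an iodixanol gradient, of which fraction 2 was sequenced. BMDC EVs came from marrow cells grown for 7 days with GM-CSF in complete RPMI, and were collected by centrifugation. The study's methods list serum in that medium and name no exosome depletion for it. Whether serum EVs added counts was not tested. The labels and the study's protocol give the gradient for colon EVs only, although a sentence of its results can be read as a gradient for both sources. Every library carries the strain label Rab27A fl/fl, a floxed allele, and the labels name no Cre driver and no age. The study's methods describe young adult C57BL/6 mice of either sex for its experiments in general. The labels do not say whether replicates were separate mice or cultures, so p-values measure the spread between these preparations, which may be technical. The source of the EVs and its culture, serum included, cannot be told apart in this design, nor can the gradient step if it was used for colon EVs alone. In such bulk preparations, fewer EVs of a cell type and less of a miRNA per EV also cannot be told apart.

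let-7 was among the earliest miRNAs found, as a timing gene of nematode larvae, and mammals carry a family of near-identical copies. A miRNA guides Argonaute proteins to messenger RNAs mainly through its seed, the bases near its 5′ end, so copies that share a seed are held to share most targets. let-7 miRNAs accumulate as cells differentiate, LIN28 proteins block the maturation of their precursors, and known targets include Hmga2, Lin28 and Ras genes. In the gut and in myeloid cells let-7 miRNAs rank among the abundant miRNAs, and they are often found in EVs.

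The mature sequences are shown because members differ at only a few bases and because reads of one can be taken for another. They are RefSeq sequences on GRCm38.p6, in which all 10 members and the related miR-98-5p were found. Each runs 5′ to 3′, and the capitals mark the seed, bases 2 to 8.
let-7a-5p: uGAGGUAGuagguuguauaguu
let-7b-5p: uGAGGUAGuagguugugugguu
let-7c-5p: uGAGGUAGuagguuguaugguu
let-7d-5p: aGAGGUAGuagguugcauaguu
let-7e-5p: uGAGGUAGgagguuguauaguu
let-7f-5p: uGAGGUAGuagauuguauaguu
let-7g-5p: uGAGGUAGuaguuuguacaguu
let-7i-5p: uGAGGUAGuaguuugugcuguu
let-7j: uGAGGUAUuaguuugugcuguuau
let-7k: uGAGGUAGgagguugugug
miR-98-5p: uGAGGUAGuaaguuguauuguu

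In what follows, substitutions count positions from 1 at the 5′ end and give the base of let-7a-5p first. let-7c-5p differed from let-7a-5p at A19G alone, and let-7b-5p at A17G and A19G, so that let-7c-5p and let-7b-5p were parted by a single base. let-7e-5p differed at U9G, let-7f-5p at G12A, and let-7d-5p at U1A and U16C. let-7g-5p and let-7i-5p shared G12U and U18C, and let-7i-5p carried A17G and A19U besides. Of the 10 members, 9 had the seed GAGGUAG, which miR-98-5p also has. let-7j was the exception. Over the bases it shares with let-7i-5p it differed only at G8U, counted with the let-7i base first, which changes its seed to GAGGUAU. let-7k is a short sequence that matched let-7b-5p except at U9G, counted from let-7b-5p, and let-7e-5p except at A17G and A19G.

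The family is spread over 14 annotated hairpins, miR-98 included (GRCm38, 1-based). A cluster lies in an exon of the long noncoding RNA 6720427I07Rik on the minus strand, made of Mirlet7a-1 (chr13:48538179-48538272), Mirlet7f-1 (chr13:48537829-48537917) and Mirlet7d (chr13:48536012-48536114). Mirlet7c-2 (chr15:85706603-85706697) and Mirlet7b (chr15:85707319-85707403) lie on the plus strand, 621 bases apart, in an exon of Lncppara. A further let-7c hairpin, Mirlet7c-1 (chr16:77599657-77599750, plus strand), lies in an intron of Mir99ahg. let-7i has a single hairpin, Mirlet7i (chr10:122985640-122985724, minus strand), in an exon of D630033A02Rik, annotated as a transcribed processed pseudogene. Introns hold Mirlet7e (chr17:17830352-17830444, in Spaca6), Mirlet7g (chr9:106178840-106178927, in Wdr82), Mirlet7a-2 (chr9:41536716-41536811, in 3110039I08Rik) and, 785 bases apart in Huwe1, Mirlet7f-2 (chrX:151912346-151912428) and Mir98 (chrX:151913214-151913321), all on the plus strand. Mir7j (chr3:140028249-140028370, plus strand) and Mir7k (chr5:147283189-147283298, minus strand), the hairpins of let-7j and let-7k, lie between genes of their strand. let-7a, let-7c and let-7f thus have hairpins at more than 1 locus, and their mature counts cannot be assigned to one of them.

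Libraries held between 83997 and 645303 counts, colon EV replicate 1 being the deepest, and the let-7 members took between 20582 and 235452 of them. The 9 epithelial miRNAs chosen as markers (the miR-200 family, miR-192-5p, miR-194-5p, miR-215-5p and miR-375-3p) summed to between 22.6% and 29.9% of counts in colon EVs and between 0.377% and 0.795% in BMDC EVs, and all 9 were higher in every colon library. The 7 haematopoietic markers, among them miR-223-3p, miR-142a-3p and miR-155-5p, summed to between 0.514% and 1.19% in colon EVs. In BMDC EVs they summed to between 30.7% and 32.3%, and all 7 were higher in every BMDC library. The study had already named miR-146a, miR-155, miR-223-3p and miR-342-3p from this sequencing. All marker lists were chosen with such earlier results known, so these tallies are not independent of them. The 4 markers of muscle and mesenchyme stayed between 0.118% and 0.179% in colon EVs and between 0.00591% and 0.0169% in BMDC EVs. Of these 4, 2 were higher in every colon library, miR-143-3p and miR-145a-5p, and miR-143-3p made up most of the colon sum. miR-1a-3p and miR-133a-3p overlapped between sources. The 3 red cell markers stayed at or below 0.0131% in every library, with miR-486a-5p at 0 in all colon libraries and miR-144-3p at 0 in all BMDC libraries. On normalized counts, described below, miR-486b-5p, outside this list, had 9.89, 20.9 and 33.7 in colon EVs and 113, 111 and 98.4 in BMDC EVs. The 0 counts of miR-486a-5p in colon EVs thus hold for that name alone. The epithelial and haematopoietic lists moved with the source, as did most let-7 members, in different directions. The part of any list in the let-7 differences was not tested. Within colon EVs, replicate 1 had both the highest epithelial share, 29.9%, and the lowest let-7 share, given next.

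let-7 took a larger share of the miRNA counts in colon EVs than in BMDC EVs, and different members made up that share. The 10 members together held 36.5%, 43.6% and 42.2% of all counts in colon EV replicates 1, 2 and 3. In BMDC EVs they held 24.9%, 24.5% and 22.5%. The sources did not overlap, with means of 40.8% ± 3.76 (SD, n = 3) and 24.0% ± 1.29 (SD, n = 3), a difference of -16.8 percentage points for BMDC minus colon (2-sided exact permutation test p = 0.1). With 3 libraries against 3, 0.1 is the smallest p this test can give. The size of the gap depended on the denominator. It was -10.9 points when the most abundant miRNAs outside the family were left out of the total and -27.3 points with totals scaled by edgeR's TMM factors.

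**Figure D1:**
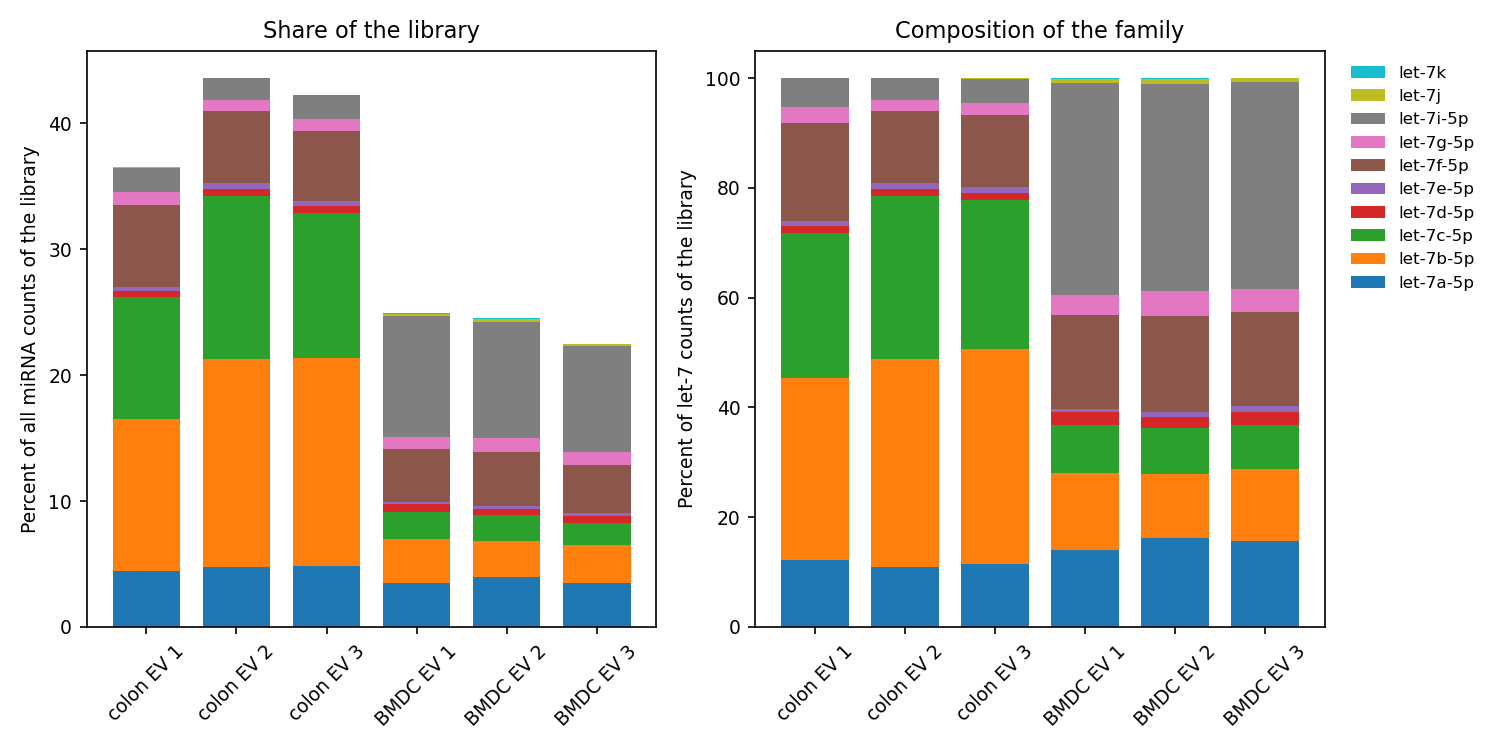
Stacked bars of the 10 let-7 members in each of the 6 libraries, as percent of all miRNA counts (left) and as percent of the let-7 counts (right). The bars on the left reach 36.5% to 43.6% in colon EVs and 22.5% to 24.9% in BMDC EVs, and on the right let-7b and let-7c fill most of the colon bars where let-7i is the largest piece of the BMDC bars.

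let-7b-5p and let-7c-5p accounted for the larger colon share. Together they held 21.7%, 29.5% and 28.1% of all counts in colon EV replicates 1 to 3 and 5.65%, 4.94% and 4.75% in BMDC EVs, means of 26.4% ± 4.13 and 5.11% ± 0.475 (SD, n = 3 each). The 8 other members together went the opposite way, from 14.3% ± 0.364 of all counts in colon EVs to 18.8% ± 0.980 in BMDC EVs, again without overlap (exact permutation test p = 0.1 for both). That difference lay with let-7i-5p, since the 7 members other than let-7b, let-7c and let-7i held 12.5% ± 0.298 of counts in colon EVs and 9.75% ± 0.543 in BMDC EVs. let-7i-5p took 1.90%, 1.73% and 1.86% of all counts in the colon libraries and 9.63%, 9.22% and 8.44% in the BMDC libraries. Counting error was small beside these gaps. The widest 95% Wilson interval reached 0.291 percentage points to either side of a share of a library and 0.662 points to either side of a share of the let-7 counts, and these intervals cover counting error only.

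Within the let-7 counts, the leading member changed from let-7b-5p to let-7i-5p. let-7b-5p made up 33.2%, 38.0% and 39.2% of let-7 counts in colon EVs and 14.1%, 11.7% and 13.3% in BMDC EVs. let-7c-5p made up 26.4%, 29.7% and 27.2% in colon EVs and 8.59%, 8.46% and 7.85% in BMDC EVs. let-7i-5p made up 5.21%, 3.96% and 4.40% in colon EVs and 38.7%, 37.6% and 37.6% in BMDC EVs. These 3 members did not overlap between sources, and the differences of their means for BMDC minus colon were -23.8, -19.5 and 33.4 percentage points (2-sided exact permutation test p = 0.1, Benjamini-Hochberg adjusted p = 0.143 over the 10 members). let-7a-5p, from the chr13 cluster and the Mirlet7a-2 locus, had a higher share in BMDC EVs without overlap, 11.5% ± 0.677 against 15.3% ± 1.12, as did let-7d-5p with 1.26% ± 0.0324 against 2.32% ± 0.275 and let-7g-5p with 2.40% ± 0.482 against 4.14% ± 0.497 (SD, n = 3 each). The adjusted p of these 3 was also 0.143. Shares within a library sum to a fixed whole, so a smaller share of let-7b and let-7c enlarges the others, and the tests of the 10 members are not independent. On normalized counts, compared below, let-7a-5p, let-7d-5p and let-7g-5p were not higher in BMDC EVs (log2 fold changes of -0.81, -0.34 and -0.43). The shares of let-7e-5p, let-7f-5p and let-7k overlapped between sources, with adjusted p of 0.333, 0.4 and 0.333. let-7e-5p made up 0.999% ± 0.0943 and 0.869% ± 0.186, and let-7f-5p made up 14.7% ± 2.76 and 17.2% ± 0.247. let-7j, the member with the changed seed, made up 0.0257% ± 0.00487 in colon EVs and 0.867% ± 0.177 in BMDC EVs, without overlap.

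The members were also grouped by the letter at the positions where they differ. Members with G at base 19, which are let-7b, let-7c and let-7k, summed to 64.6% of let-7 counts in colon EVs and 21.4% in BMDC EVs. Those with A there, which are let-7a, let-7d, let-7e, let-7f and let-7g, summed to 30.8% and 39.8%. The pair with U there, let-7i and let-7j, summed to 4.55% and 38.8%. The largest moves were thus at both ends of the family, while the group with A at base 19 moved least in proportion. Base 12 grouped the members differently. let-7g, let-7i and let-7j, which carry U there, went from 6.95% ± 1.11 to 43.0% ± 0.314, most of it let-7i (4.52% and 38.0%). Members with G at base 12, which joined let-7b and let-7c with let-7a, let-7d, let-7e and let-7k, summed to 78.4% and 39.8%.

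The order of the members differed accordingly, and as a read spans a whole mature miRNA, levels of different members were compared without division by length. On normalized counts, scaled between libraries as described in the next paragraph, the order in colon EVs was let-7b, let-7c, let-7f, let-7a, let-7i, let-7g, let-7d, let-7e, let-7k and let-7j. All neighbours in it were separate in the 3 libraries except let-7k and let-7j. In BMDC EVs the order was let-7i, let-7f, let-7a, let-7b, let-7c, let-7g, let-7d, let-7e, let-7j and let-7k, with overlap between let-7a and let-7b and between let-7e and let-7j. As unscaled shares of all counts, let-7b and let-7c in colon EVs and let-7f and let-7a in BMDC EVs overlapped between libraries as well. Inside every colon library let-7b was still above let-7c, and inside every BMDC library let-7f was above let-7a. Among all miRNAs of the table, let-7b-5p and let-7c-5p ranked 1 and 2 in colon EVs and 10 and 12 in BMDC EVs. let-7i-5p went from rank 14 to rank 3. let-7f-5p and let-7a-5p ranked 4 and 6 in colon EVs and 8 and 9 in BMDC EVs, so that 4 members stood in the top 10 of each source. let-7j went from rank 149 to 46, and let-7k stood at ranks 136 and 170.

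Sources were next compared member by member on normalized counts, which are counts divided by TMM-scaled library sizes and brought to a common total. A miRNA was tested if 3 or more libraries held 10 or more counts of it, which left 220. Over these, edgeR's quasi-likelihood test called 76.8% at a Benjamini-Hochberg adjusted p under 0.05, of which lower in BMDC EVs were 36.4% of those tested and higher 40.5%. All 10 members were tested. let-7b, let-7c, let-7a, let-7e and let-7f fell, let-7i and let-7j rose, and let-7d, let-7g and let-7k did not pass. The 7 of 10 members called are near the 76.8% over all tested miRNAs, so a call by itself does not set the family apart. The median log2 fold change of the members was -0.62, against 0.19 over all tested miRNAs. The normalized counts of 9 of the 10 members did not overlap between sources, where 81.8% of all tested miRNAs did not.

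**Figure D2:**
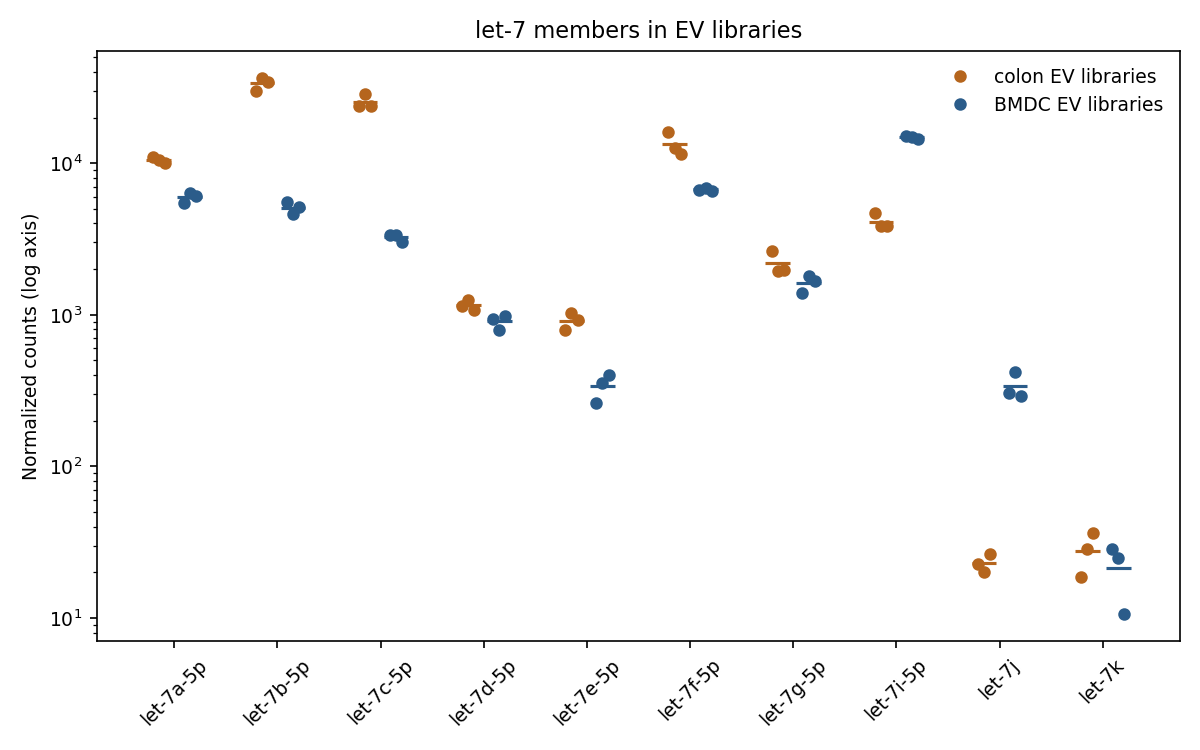
Normalized counts of each let-7 member in the 3 colon EV libraries (brown) and the 3 BMDC EV libraries (blue) on a log axis, with a horizontal line at the mean of each source. let-7i and let-7j are the only members that stand higher in BMDC EVs in all libraries, and the points of let-7k overlap.

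let-7c-5p and let-7b-5p showed the largest falls in the family. let-7b-5p had 29706, 36678 and 34515 normalized counts in colon EVs and 5521, 4614 and 5138 in BMDC EVs, which gave a log2 fold change of -2.72 (SE 0.242, 95% interval -3.23 to -2.21, adjusted p = 9.74e-09). let-7c-5p had 23672, 28655 and 23982 normalized counts in colon EVs and 3365, 3340.1 and 3036 in BMDC EVs, which gave a log2 fold change of -2.97 (SE 0.239, 95% interval -3.47 to -2.47, adjusted p = 2.16e-09). Every colon library stood well above every BMDC library for both, and colon EV replicate 1 was the lowest of its source for both. The intervals of these neighbours on chr15 overlapped each other. The number of let-7c counts per let-7b count was 0.758 ± 0.0550 in colon EVs and 0.641 ± 0.0721 in BMDC EVs (SD, n = 3 each), and the libraries of the sources overlapped (exact permutation test p = 0.2).

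let-7i-5p and let-7j went against the rest. let-7i-5p had 4664, 3822 and 3878 normalized counts in colon EVs and 15154, 14861 and 14532 in BMDC EVs, which gave a log2 fold change of 1.85 (SE 0.224, 95% interval 1.38 to 2.32, adjusted p = 5.90e-07). let-7j had 22.8, 19.99 and 26.5 normalized counts in colon EVs and 305, 422 and 289 in BMDC EVs, which gave a log2 fold change of 3.87 (SE 0.299, 95% interval 3.24 to 4.50, adjusted p = 1.27e-09). All BMDC libraries were above all colon libraries for both, and let-7i-5p was close to even among the BMDC libraries, with a mean of 14849 ± 311 (SD, n = 3). The deposited counts behind let-7j in colon EVs were 60.37, 21.08 and 22.35. Over the bases they share, let-7j matches let-7i-5p except at the last seed base, and let-7j has 24 bases where let-7i-5p has 22. The let-7j counts can thus contain let-7i reads with a changed base, and let-7j is reported as uncertain.

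The reversal between let-7i and let-7b was seen inside each library, where no scaling between libraries enters. let-7i counts per let-7b count were 0.157, 0.104 and 0.112 in colon EVs and 2.74, 3.22 and 2.83 in BMDC EVs. Every colon library had fewer let-7i than let-7b counts, and every BMDC library had more (exact permutation test p = 0.1, the smallest possible). let-7i-5p and its near relative let-7g-5p, which share G12U and U18C, also differed from each other. let-7g-5p had 2637, 1947 and 1976 normalized counts in colon EVs and 1402, 1788 and 1670.5 in BMDC EVs, which gave a log2 fold change of -0.43 (SE 0.216, adjusted p = 0.0750) that did not pass.

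let-7a-5p, let-7f-5p and let-7d-5p, whose hairpins share the chr13 cluster, all had negative log2 fold changes, and the first 2 of them passed. let-7a-5p had 10926, 10464 and 10096.5 normalized counts in colon EVs and 5489, 6387 and 6035 in BMDC EVs, which gave a log2 fold change of -0.81 (SE 0.215, adjusted p = 0.00205). let-7f-5p had 16008, 12618 and 11550 in colon EVs and 6681, 6903 and 6594 in BMDC EVs, which gave a log2 fold change of -0.99 (SE 0.226, adjusted p = 0.000578). Colon EV replicate 1 was the highest colon library for let-7f-5p, where it was the lowest for let-7b-5p and let-7c-5p. The let-7a call was lost with library totals as the only scaling (log2 fold change -0.35, adjusted p = 0.113). It was also lost without any 1 of BMDC EV replicates 1, 2 and 3 (-0.37, -0.41 and -0.40, with adjusted p of 0.164, 0.160 and 0.101), and the let-7f call without BMDC EV replicate 2 (-0.55, adjusted p = 0.0635). Those fits asked for 10 counts in 3 libraries when BMDC EVs had 2 left, which removes miRNAs found in BMDC EVs alone. With 10 counts in 2 libraries, a filter chosen after seeing the data, leaving out any 1 library kept both calls, and let-7a-5p ran from -0.97 to -0.77 and let-7f-5p from -1.22 to -0.91.

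let-7d-5p had 1134, 1242 and 1078 normalized counts in colon EVs and 944, 796 and 984 in BMDC EVs, which gave a log2 fold change of -0.34 (SE 0.204, 95% interval -0.77 to 0.09, adjusted p = 0.130). Its libraries did not overlap but lay close together. Neither let-7d-5p nor let-7g-5p had a firm call. With DESeq2 both passed, at -0.48 (adjusted p = 0.0419) and -0.55 (adjusted p = 0.0208), and with library totals alone their signs turned, to 0.12 and 0.03. let-7a counts per let-7f count were 0.795 ± 0.1002 in colon EVs and 0.887 ± 0.0572 in BMDC EVs, with overlap (exact permutation test p = 0.3). let-7d counts per 100 let-7f counts were 8.75 ± 1.47 and 13.5 ± 1.78, without overlap (p = 0.1, SD, n = 3 each). let-7f and let-7a each have a further hairpin elsewhere, which let-7d does not.

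let-7e-5p, encoded beside miR-99b and miR-125a on chr17, fell. It had 798, 1019 and 925 normalized counts in colon EVs and 263, 353 and 403 in BMDC EVs, which gave a log2 fold change of -1.43 (SE 0.225, adjusted p = 1.3e-05), and the sources did not overlap. let-7k had 18.6, 28.6 and 36.1 normalized counts in colon EVs and 28.5, 24.9 and 10.6 in BMDC EVs, which gave a log2 fold change of -0.38 (SE 0.478, 95% interval -1.38 to 0.63, adjusted p = 0.474). Its libraries overlapped, and between 11.37 and 49.06 deposited counts lay behind each value, so no difference was detectable at this depth. miR-98-5p, which has the family seed but another name, had 334, 264 and 297 normalized counts in colon EVs and 345, 455 and 338 in BMDC EVs, which gave a log2 fold change of 0.34 (SE 0.221, adjusted p = 0.165). It passed with upper-quartile scaling (0.55, adjusted p = 0.0316) and with library totals alone (0.81, adjusted p = 0.00314), and its sign turned without a count filter (-0.18). miR-202-3p, a more distant relative, had 0 counts in all 6 libraries.

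**Figure D3:**
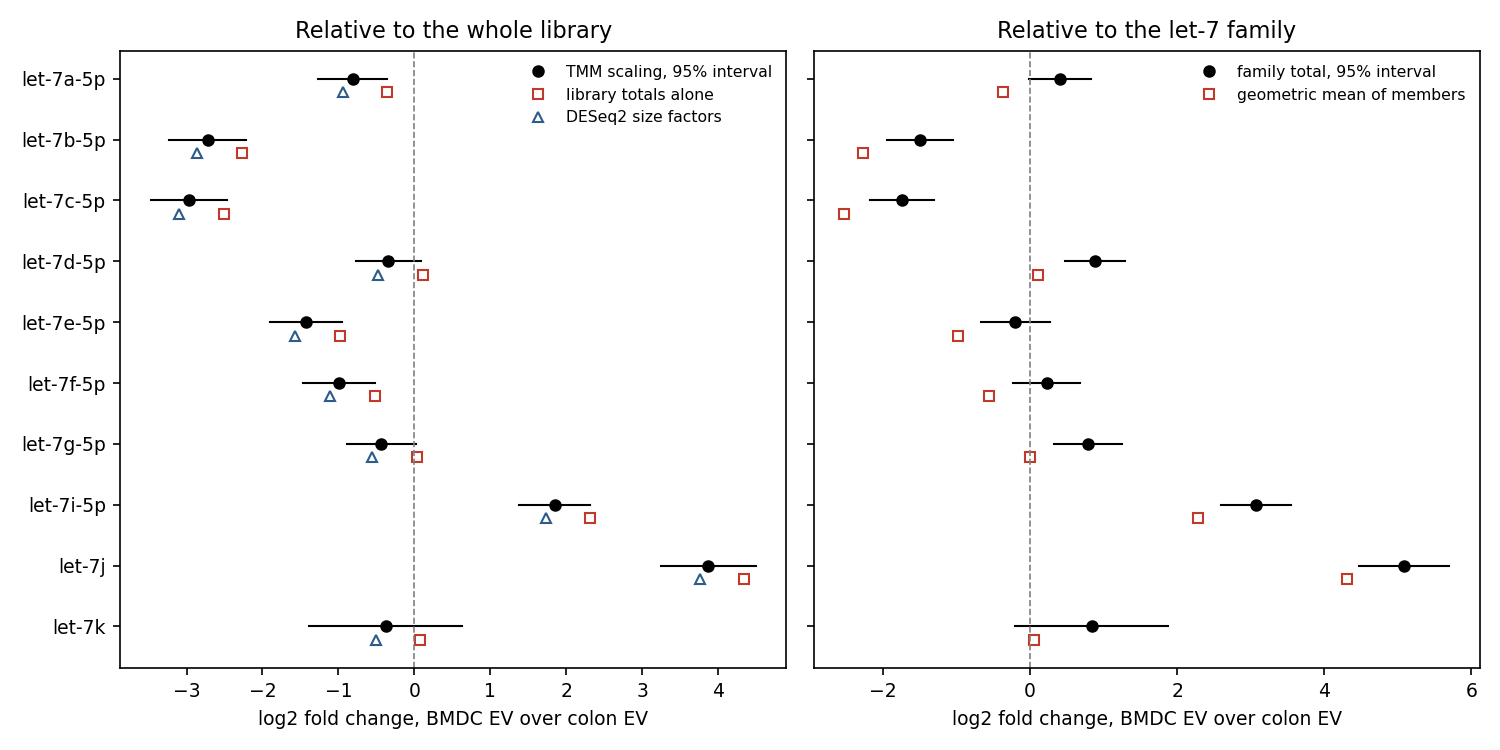
Log2 fold changes of the 10 members, BMDC minus colon, with 95% intervals, across the whole table (left, TMM scaling, with library totals and DESeq2 size factors as red squares and blue triangles) and relative to the let-7 total (right, with the geometric mean of the members as squares). On the left let-7i (1.85) and let-7j (3.87) stand above 0 and let-7b (-2.72) and let-7c (-2.97) farthest below it, and on the right the same 4 keep their sides under both references.

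To ask how members moved against their own family, the fit was repeated with the let-7 total of each library as its size. Against that reference 85% of the 220 tested miRNAs passed, 24.5% lower and 60.5% higher in BMDC EVs, since the let-7 total itself was lower in BMDC EVs. The summed normalized counts of the members were 89586, 96493 and 88064 in colon EVs and 39153, 39489 and 38692 in BMDC EVs, a log2 ratio of the means of -1.22. let-7i-5p (log2 fold change 3.07, SE 0.220, adjusted p = 3.66e-08), let-7j (5.09, adjusted p = 5.22e-09), let-7d-5p (0.89, adjusted p = 0.000805) and let-7g-5p (0.78, adjusted p = 0.00406) rose relative to the family. let-7b-5p (-1.50, SE 0.207, adjusted p = 1.8e-05) and let-7c-5p (-1.74, adjusted p = 3.09e-06) fell. let-7a-5p (0.41, adjusted p = 0.0653), let-7f-5p (0.23, adjusted p = 0.320), let-7e-5p (-0.20, adjusted p = 0.399) and let-7k (0.84, adjusted p = 0.117) did not pass.

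The family total is dominated by its most abundant members, so the geometric mean of the members was used as another reference. It weighs every member alike, so the rare and uncertain let-7j (log2 fold change 3.87 across the table) counted as much as let-7b. How far let-7j alone set the changes below was not tested. let-7i and let-7j again rose and let-7b and let-7c again fell. let-7a-5p turned to -0.37 (adjusted p = 0.131), let-7f-5p turned to -0.55 and passed (adjusted p = 0.0370), and let-7e-5p passed at -0.98. let-7d-5p and let-7g-5p came to 0.11 (adjusted p = 0.649) and 0.01 (adjusted p = 0.982), no longer past the threshold. Only let-7b, let-7c, let-7i and let-7j thus kept both sign and call under both references.

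The rare members were set against the abundant sequences they resemble. let-7j counts per 100 let-7i counts were 0.492, 0.525 and 0.693 in colon EVs and 2.02, 2.84 and 1.99 in BMDC EVs. Every BMDC library had more let-7j beside its let-7i than any colon library (exact permutation test p = 0.1). let-7k counts per 100 let-7b counts were 0.0628, 0.0783 and 0.103 in colon EVs and 0.509, 0.558 and 0.213 in BMDC EVs, also without overlap (p = 0.1). let-7k counts per 100 let-7e counts were 3.01 ± 0.777 and 6.90 ± 3.99 (SD, n = 3 each), with overlap (p = 0.3). How many of their counts came from let-7i, let-7b or let-7e reads was not tested.

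**Figure D4:**
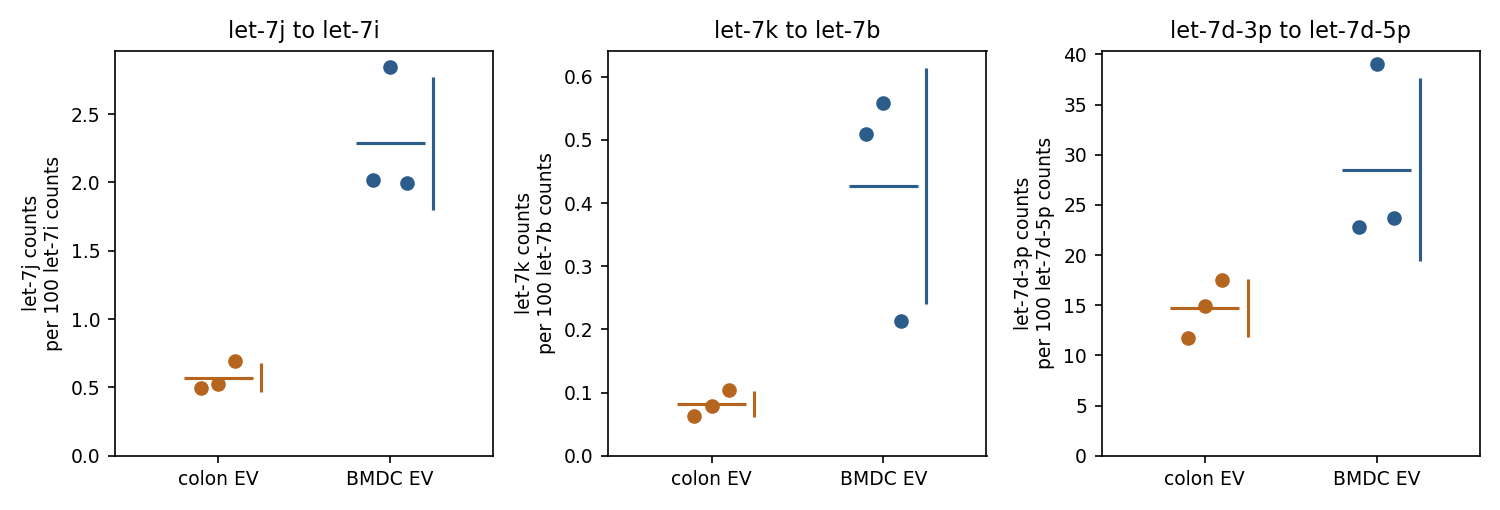
Ratios of counts within each library for let-7j per 100 let-7i, let-7k per 100 let-7b and let-7d-3p per 100 let-7d-5p, with points for libraries, a line at the mean and a vertical bar of ±SD (n = 3). In all 3 panels the BMDC EV points lie above the colon EV points, by the most for let-7j (means of 0.570 and 2.29) and let-7k (0.0815 and 0.427).

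Apart from let-7d-3p, the passenger arms of the let-7 hairpins were almost absent. Of the 12 listed 3p arms, miR-98-3p included, 10 had a count in any library and 1, let-7d-3p, passed the count filter. let-7d-3p had 132, 186 and 188 normalized counts in colon EVs and 216, 311 and 233 in BMDC EVs, which gave a log2 fold change of 0.59 (SE 0.256, adjusted p = 0.0438). That call was not firm. It was lost in 16 of the 23 alternatives described in the closing section. Among them were DESeq2 (adjusted p = 0.149), unrounded counts (adjusted p = 0.0605) and the replicate number as a block (adjusted p = 0.0607). So was leaving out any 1 of colon EV replicates 1, 2 and 3 (0.14, 0.40 and 0.41, with adjusted p of 0.584, 0.257 and 0.239). let-7d-3p counts per 100 let-7d-5p counts were 11.7, 14.9 and 17.5 in colon EVs and 22.8, 39.0 and 23.7 in BMDC EVs, without overlap (exact permutation test p = 0.1). The other 3p arms had at most 17 counts in a library. let-7b-3p had 17, 1 and 4 counts in colon EVs and 0.33, 0 and 0 in BMDC EVs. let-7i-3p had 1, 0 and 0 counts in colon EVs and 6, 1.5 and 10 in BMDC EVs. let-7g-3p had 0, 1 and 0 counts in colon EVs and 1, 9 and 4 in BMDC EVs. Most counts of let-7b-3p lay in the source where its 5p arm was higher, as did those of let-7i-3p, while those of let-7g-3p lay in BMDC EVs, where the level of its 5p arm was not higher. No test was made of these few counts.

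miRNAs that share a primary transcript or cluster with a let-7 hairpin were compared with it. miR-125a-5p, the partner of let-7e, fell with a log2 fold change of -1.47 (SE 0.231, adjusted p = 1.23e-05), from 1477 ± 286 to 530.5 ± 113 normalized counts, close to the -1.43 of let-7e-5p. miR-99b-5p of the same cluster had 144 ± 22.9 in colon EVs and 144 ± 25.3 in BMDC EVs, which gave a log2 fold change of 0.02 (SE 0.271, 95% interval -0.55 to 0.59, adjusted p = 0.961). Its sign turned under other scalings and filters, for example to -0.13 with DESeq2. The cluster of let-7e thus held both a member with a like fall and one without a detectable change. miR-125b-5p, which has copies beside let-7a-2 and let-7c-1, fell by 2.65 on the log2 scale (SE 0.301, adjusted p = 2.62e-07), from 248 ± 54.5 to 39.7 ± 5.53 normalized counts. miR-99a-5p, which neighbours let-7c-1, had 20, 4 and 4 deposited counts in colon EVs and 0, 2 and 0 in BMDC EVs, and miR-100-5p, which neighbours let-7a-2, had 4, 3 and 0 against 0, 0 and 0. Both were below the count filter.

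The miRNAs outside the family whose normalized levels followed the let-7 sum most closely were found by the root mean square difference of centred log2 levels over the 6 libraries. They were miR-320-3p (0.146), miR-23b-3p (0.168) and miR-103-3p (0.205). miR-320-3p went from 209.7 ± 49.2 to 88.9 ± 2.62 normalized counts, miR-23b-3p from 833 ± 89.7 to 299 ± 16.9 and miR-103-3p from 1075 ± 134 to 589 ± 22.7 (SD, n = 3 each). With 3 libraries of each source, such likeness describes mostly the step between sources.

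Deposited values of let-7 members were often not whole numbers. Of the 60 member values, 58 differed from a whole number by more than 0.001, and 8 of the 10 members were fractional in all 6 libraries. Among the 210 other tested miRNAs, 47 (22.4%) were fractional in all 6 libraries, and among the 41 of these with at least 100 counts in every library, 26 were. The sum of the 10 members lay between -0.33 and 0.19 from the nearest whole number, and in 5 of the 6 libraries farther from it than the 0.05 that rounding of the table allows. With the 3p arms and miR-98 added, the sum lay between -0.43 and 0.28 from the nearest whole number. How the fractions arose was not tested. For let-7b, let-7c, let-7a and the other members parted by a single base, the levels hold to the extent that reads were assigned to the right copy.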

How the data were processed

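Small RNA from 3 colon EV and 3 BMDC EV preparations was made into libraries with the QIAseq miRNA kit. What the authors deposited are estimated counts for mature miRNAs, not normalized and not always whole. The submitters' processing notes name STAR 2.7.6a, featureCounts 1.6.3, DESeq2 1.30.1, GRCm38 and mm10. How reads shared by similar miRNAs were divided, and whether molecular identifiers were used, is not given in the sources used here. Each column was assigned to its library by its name, and 0 columns matched no library.

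Counts were rounded and tested in R 4.3.3 with edgeR 4.0.16 (quasi-likelihood test, TMM, at least 10 counts in at least 3 libraries, Benjamini-Hochberg over the 220 miRNAs tested), and again with the let-7 total as library size. Positive values mean higher in BMDC EVs. Shares and ratios used unrounded counts and exact permutation tests in scipy 1.17.1. A total of 3 counts corresponds to 4.65 to 17.3 CPM in colon EVs and 16.8 to 35.7 in BMDC EVs. DESeq2 1.42.0, limma 3.58.1, other scalings and filters, a replicate block and leaving out each library were alternatives. The code was tested on simulated data, and no library was a duplicate of another. Named miRNAs are the members, miR-98 and miR-202, the 3p arms, cluster neighbours and the 3 miRNAs most like the let-7 sum. The members and all lists were chosen with earlier results of these data known. Hairpin positions are those of the sequence reference on GRCm38.p6, and their host genes follow GENCODE vM21.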

Additional observations from a re-analysis of the deposited data

How the results depend on the processing

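let-7b, let-7c and let-7e stayed lower and let-7i and let-7j higher in BMDC EVs, past the threshold, in all 23 alternatives of the comparison across the table, 7 of which (the filter on 2 libraries) were chosen after seeing the data. Over all alternatives let-7b-5p ran from -3.21 to -2.21, let-7c-5p from -3.47 to -2.51, let-7e-5p from -1.92 to -0.90, let-7i-5p from 1.33 to 2.32 and let-7j from 3.35 to 4.41 on the log2 scale. Relative to the let-7 total, let-7b, let-7c, let-7i and let-7j held in all 14 alternatives. The members called lower numbered 5 and ran from 3 to 7 when single libraries were left out, 3 without BMDC EV replicate 2, and from 5 to 6 with 10 counts in 2 libraries. The median of all tested log2 fold changes moved by -0.13 with DESeq2 size factors, -0.12 with TMM computed without let-7, 0.20 with the upper quartile and 0.45 with library totals.

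Signs turned for members near 0. With library totals let-7d-5p was 0.12, let-7g-5p 0.034 and let-7k 0.079. With single libraries left out let-7d-5p ran from -0.64 to 0.20, let-7g-5p from -0.78 to 0.056, let-7k from -0.91 to 0.42, miR-98-5p from -0.011 to 0.85 and miR-99b-5p from -0.39 to 0.53. miR-98-5p was -0.18 without a filter, and passed without BMDC EV replicate 1, 2 or 3 (0.80, 0.65 and 0.85). miR-99b-5p was -0.13 with DESeq2, with DESeq2 size factors and with filterByExpr, -0.47 without a filter, -0.023 with unrounded counts, -0.11 with TMM without let-7 and -0.080 with the filter on 2 libraries, under which it ran from -0.20 to 0.091 when single libraries were left out and was -0.16 without colon EV replicate 1. Against the geometric mean of members, 2 members were higher and 4 lower, where the family total gave 4 and 2, with let-7a-5p at -0.37 and let-7f-5p at -0.55. As log2 of member over geometric mean, the composition had 2 members higher and 5 lower without overlap, where shares gave 5 and 2, with let-7a-5p at -0.37 and let-7f-5p at -0.54. The let-7 share differed by -27.3 points over TMM-scaled totals and -10.9 points without the most abundant other miRNAs. Apart from what a setting's own construction shows, the cause was not tested.

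In deviations from their source means, same-numbered libraries of the sources correlated at -0.107 on average (-0.137 to -0.0497), and differently numbered ones at 0.0537. With 3 same-numbered pairs and values centred within each source, this cannot show whether such libraries shared a mouse or batch. A block on the replicate number gave 86 miRNAs higher and 78 lower, against 89 and 80 without it, and the members gave 2 higher and 5 lower as before, or 4 and 2 relative to the family. At a floor of 3 counts the depth limits the 3p arms other than let-7d-3p. let-7k stood above that floor, with 11.37 to 49.06 counts, but these low counts limit what can be detected for it.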
